A study of Pinus pinaster with 66 samples.

Results

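Q17J10 and Q10D23 are 2 of the 8208 cDNA spots of a maritime pine array. The study describes Q17J10 as ketol-acid reductoisomerase and Q10D23 as methylenetetrahydrofolate dehydrogenase. Both were chosen by name, and both had a value on all 66 arrays, so neither was lost to a filter. The deposited table names no genes, so both names come from the descriptions of the study. The array printed complementary DNA clones, and whether other members of the same gene families bind to these spots was not tested.

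Ketol-acid reductoisomerase is the plastid enzyme that rearranges and reduces acetohydroxy acids on the way to valine, leucine and isoleucine. Methylenetetrahydrofolate dehydrogenase oxidizes methylene-tetrahydrofolate and so connects the one-carbon units taken from serine with those used for purines and formylation. Serine hydroxymethyltransferase, which moves a carbon from serine to tetrahydrofolate, supplies its substrate. One-carbon units on folate also feed methionine and, through S-adenosylmethionine, the methylation steps of lignin and betaine synthesis in plants.

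The needles came from 6 wild maritime pines (Pinus pinaster) of a mountain forest, 20 to 25 years old, and were harvested in January, March, May, July, September and November of 2012. Whorl 0 holds the needles of that year and was taken from May on, and Whorls 1, 2 and 3 hold needles that are 1, 2 and 3 years older. As the RNA of the 6 trees was pooled 2 by 2, each of the 22 groups of month and whorl had 3 replicates. The trees received no treatment, and the same 6 trees gave all the whorls at every harvest. Neither the months nor the whorls are therefore independent samples, and p-values measure the spread between these pools. Numbers of arrays over Whorls 1 to 3 thus do not count separate trees. Whole needles were used, and a change in the share of a cell type cannot be told apart from a change within cells. Every array set Cy3-labelled sample RNA against the same Cy5-labelled pool of all the January RNA. Values are log ratios to that pool, treated as log2, and a higher value likely stands for more transcript. The dyes are stated but the orientation of the ratio is not, so this direction rests on the signs that the study gives for its listed genes. Following the network analysis of the study, replicate 2 of November Whorl 2 did not enter the comparisons, which leaves 65 arrays and 2 in that group.

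In mature needles the log ratio of ketol-acid reductoisomerase was above 0 in May, July and September and below 0 in January, March and November. This spot is one that the study listed for its correlation with Temperature on these same arrays, so its course over the months is given as a description without a test. In Whorls 1 to 3 the 27 arrays of the 3 warm months ran from 0.029 to 0.59 with a median of 0.27. The 26 arrays of the 3 cold months ran from -0.40 to -0.00099 with a median of -0.24. All 27 warm arrays were thus above all 26 cold arrays. The array that was left out had a value of 0.28, which lies among the warm arrays, and with it the 2 seasons overlap.

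The mean log2 ratio of Whorls 1 to 3 was -0.22 ± 0.048 in January (SD, n = 9) and -0.27 ± 0.11 in March (SD, n = 9). It was 0.31 ± 0.14 in May (SD, n = 9), 0.42 ± 0.13 in July (SD, n = 9) and 0.17 ± 0.11 in September (SD, n = 9). In November it was -0.18 ± 0.13 (SD, n = 8). The step from March to May, 0.58 ± 0.050 (SE), was the widest of the 5 steps between successive months in mature needles. Between January and March the difference was -0.048 ± 0.050, between May and July 0.10 ± 0.050, between July and September -0.24 ± 0.050 and between September and November -0.35 ± 0.052. November and January differed by 0.047 ± 0.052, so the last harvest was close to the first. The small steps depended on the processing, as May to July was 0.056 after quantile normalization and 0.055 to 0.16 with 1 replicate number left out, and January to March was -0.0090 after quantile normalization. Averaged over whorls, the warm months were 0.52 ± 0.029 higher than the cold ones, a ratio of 1.44.

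Most spots of the array moved with the months, and the members are read against that background. Of all spots tested, 74.8% differed between the warm and the cold months of Whorls 1 to 3 at an adjusted p under 0.05 (limma, Benjamini-Hochberg adjustment over all spots). The percentage called was 31.6% for January to March, 59.4% for March to May and 34.3% for May to July. It was 44.8% for July to September, 58.6% for September to November and 42.1% for January against November. In size, 5.13% of the spots had a larger difference between warm and cold months than Q17J10.

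**Figure D1:**
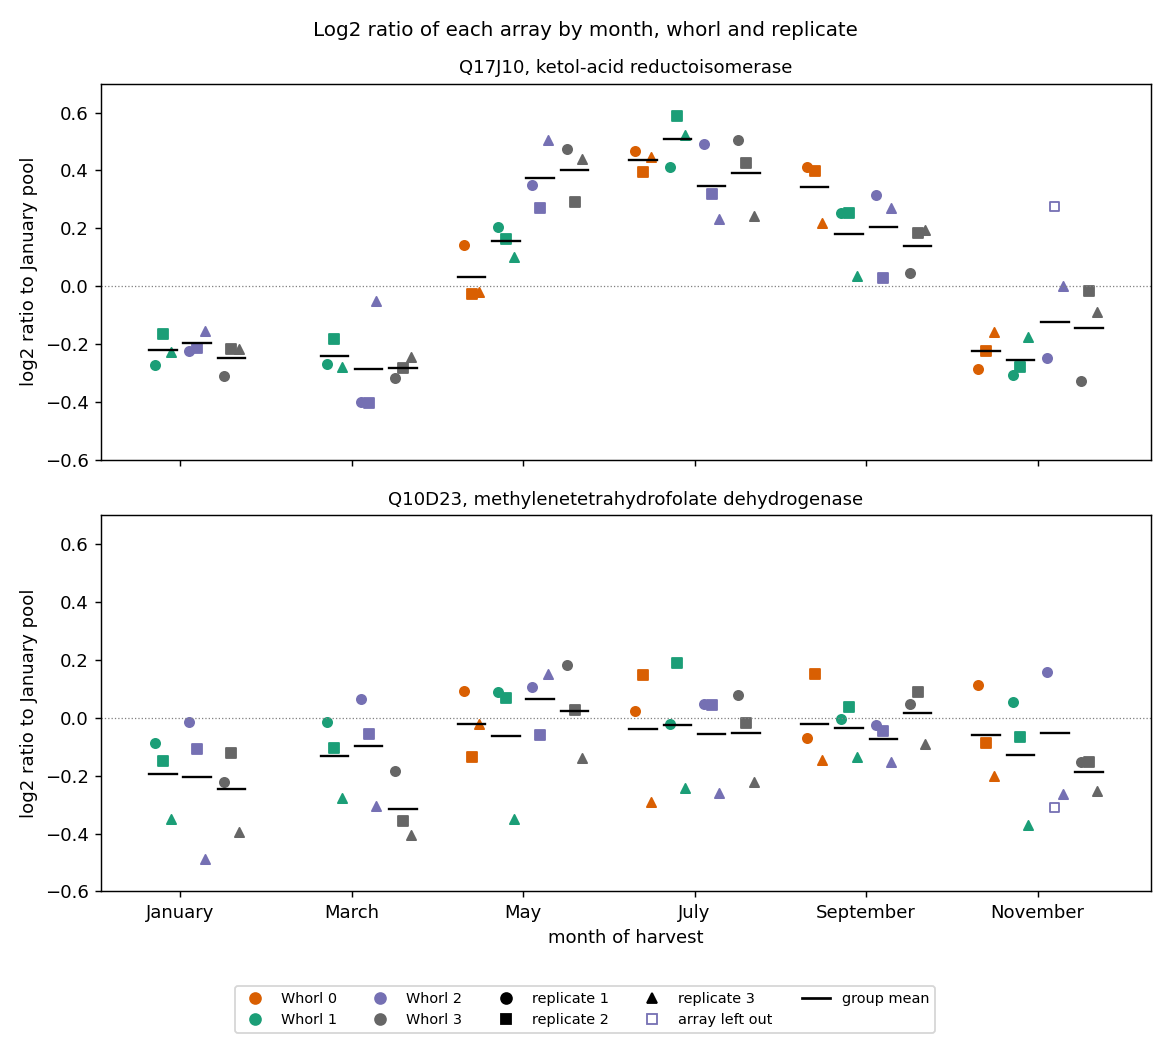
Log2 ratio to the January pool (vertical axis) of every array by month of harvest (horizontal axis) for Q17J10 (top) and Q10D23 (bottom), with whorls in colour, replicates 1, 2 and 3 as circles, squares and triangles, group means as black bars and the left-out array as an open square. In Q17J10 the July groups have means of 0.35 to 0.51 and the March groups of -0.29 to -0.24, whereas in Q10D23 the triangles of replicate 3 lie below the other symbols in most groups.

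In May, ketol-acid reductoisomerase was lower in the emerging needles of Whorl 0 than in the older needles. In May the 3 arrays of Whorl 0 read 0.14, -0.028 and -0.019, those of Whorl 1 0.20, 0.16 and 0.10, those of Whorl 2 0.35, 0.27 and 0.51, and those of Whorl 3 0.47, 0.29 and 0.44. The May means were therefore 0.031 ± 0.095 in Whorl 0, 0.16 ± 0.051 in Whorl 1, 0.37 ± 0.12 in Whorl 2 and 0.40 ± 0.097 in Whorl 3 (SD, n = 3 each). No array of Whorl 0 or Whorl 1 reached the lowest of Whorls 2 and 3, whereas Whorl 0 and Whorl 1 overlapped, as did Whorl 2 and Whorl 3. Whorl 0 differed from the mean of the older whorls by -0.28 ± 0.070 (SE), with a 95% confidence interval of -0.42 to -0.14 and an adjusted p of 8.17e-04 (limma). Whorl 0 thus had 0.824 times the ratio of the older needles. This comparison called 52.3% of the spots, and 32.5% of the spots had a larger difference than this one. The choice of this spot for Temperature over all whorls left less room for a whorl to depart from the others.

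In the later months no difference between young and older needles passed the test. The arrays of Whorl 0 read 0.47, 0.39 and 0.45 in July, inside the span of 0.23 to 0.59 of the 9 older arrays. The difference was 0.020 ± 0.070, with a 95% interval of -0.12 to 0.16 and an adjusted p of 0.849 (limma), in a month in which 35% of the spots were called. In September Whorl 0 read 0.41, 0.40 and 0.22, against 0.029 to 0.31 in the older arrays. Its difference of 0.17 ± 0.070 did not pass the test (adjusted p = 0.149, limma; 7.4% of spots called), and after quantile normalization it was 0.085, with a 95% interval of -0.026 to 0.20. In November Whorl 0 read -0.29, -0.22 and -0.16, within the range of the older needles, and differed from them by -0.049 ± 0.072 (adjusted p = 0.856, limma; 4.16% of spots called).

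The change of this difference between months was tested directly. From May to July the difference of Whorl 0 from the older whorls moved by 0.30 ± 0.099 (95% interval 0.099 to 0.50, adjusted p = 0.0236, limma), a comparison in which 21.7% of the spots were called. After quantile normalization it was 0.19 with an adjusted p of 0.0962. Leaving out 1 replicate number at a time gave 0.21 to 0.35, with adjusted p from 0.0374 to 0.226, and the call was lost without replicate 2 and without replicate 3. From July to September the difference moved by 0.15 ± 0.099 and from September to November by -0.22 ± 0.10, and neither passed (adjusted p = 0.45 and 0.479, limma; 8.1% and 0.711% of spots called). From May to November it moved by 0.23 ± 0.10 with an adjusted p of 0.0777 (limma; 30% of spots called), which became 0.0429 with replicate number within month as a random block.

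Within Whorl 0 the log2 ratio of ketol-acid reductoisomerase was 0.40 ± 0.086 (SE) higher in July than in May. The difference from July to September was -0.092 and that from September to November -0.57. After quantile normalization the first of these 3 steps was 0.25 and that from July to September -0.035. These are descriptions without a test, as for the months of the mature needles. Of all spots, 25.4%, 22% and 37.3% were called in these 3 steps of Whorl 0. The warm months were 0.49 above the only cold month in Whorl 0, and 0.52, 0.51 and 0.54 above the cold months in Whorls 1, 2 and 3.

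**Figure D2:**
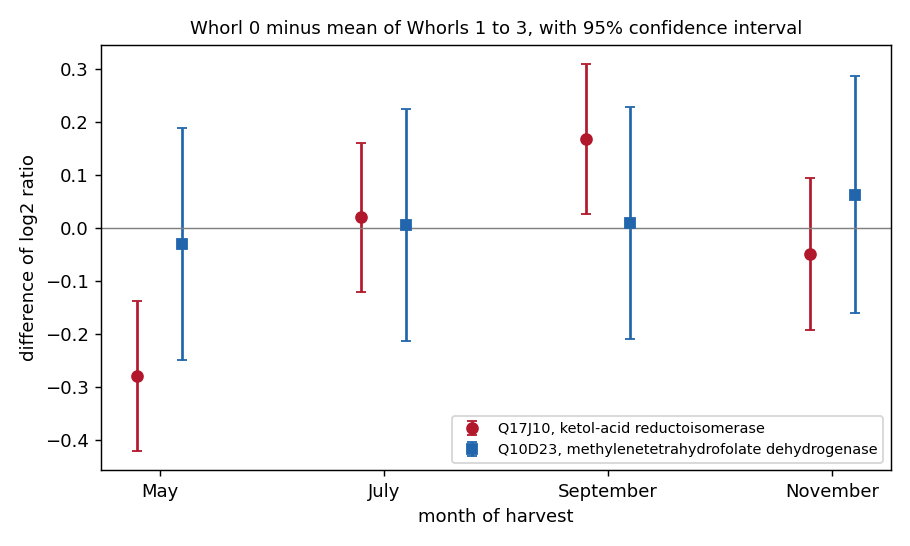
Difference of the log2 ratio between Whorl 0 and the mean of Whorls 1 to 3 (vertical axis) in each month with Whorl 0 needles (horizontal axis), with 95% confidence intervals from the fit over all groups. The interval of Q17J10 lies below 0 in May (-0.42 to -0.14) and includes 0 in July and November, and in September it lies above 0 (0.027 to 0.31) while the adjusted p is 0.149, an interval that includes 0 after quantile normalization. The intervals of Q10D23 include 0 in all 4 months.

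Among mature needles, no difference of ketol-acid reductoisomerase between the oldest and the youngest passed the test outside May. Whorl 3 and Whorl 1 differed by 0.022 ± 0.035 over the 6 months (95% interval -0.049 to 0.093, adjusted p = 0.755, limma), where 10.4% of the spots were called. In May Whorl 3 was 0.24 ± 0.086 higher than Whorl 1 (adjusted p = 0.0453, limma; 15.1% of spots called). This call was lost without any 1 of the replicates (adjusted p 0.137 to 0.225), after quantile normalization (0.0661) and with the left-out array kept in (0.0733). The differences in the other months were -0.026 in January, -0.039 in March, -0.12 in July, -0.041 in September and 0.11 in November, each with a standard error of 0.086. None of these 5 passed, and 4.4%, 2.09%, 1.77%, 0.0529% and 0.0395% of the spots did. The difference between warm and cold months was larger by 0.014 ± 0.070 in Whorl 3 than in Whorl 1, which did not pass (95% interval -0.13 to 0.16, adjusted p = 0.966, limma; 0.57% of spots called).

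Methylenetetrahydrofolate dehydrogenase varied much less between the groups. Its 22 group means spanned 0.38 on the log2 scale, from -0.32 in March Whorl 3 to 0.067 in May Whorl 2, against 0.79 for Q17J10. Of the 5823 spots measured on each of the 65 arrays, 71.8% had a wider span than Q10D23 and 31.2% a wider span than Q17J10, and the median was 0.55. For both spots, each group overlapped with its neighbour in the order of the means, in all 21 neighbouring pairs. The share of such pairs over all spots was not computed, so this is not read as a trait of the 2 spots. Groups further apart in the order can be separate, as the warm and cold mature-needle arrays of Q17J10 were in the arrays used. The highest means of Q17J10 were those of July Whorl 1 (0.51), July Whorl 0 (0.44) and May Whorl 3 (0.40), and the lowest were those of March Whorl 2 (-0.29) and March Whorl 3 (-0.28).

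In mature needles methylenetetrahydrofolate dehydrogenase was slightly higher in the warm months. Its 27 warm arrays ran from -0.35 to 0.19 with a median of -0.0049, and its 26 cold arrays from -0.49 to 0.16 with a median of -0.15. The seasons overlapped over most of their range, although 23 of 27 warm arrays were above the mean of the cold arrays. The left-out array read -0.31, within the range of the cold arrays and also within that of the warm arrays. The warm months were 0.15 ± 0.045 (SE) higher, a ratio of 1.11, with a 95% interval of 0.060 to 0.24 and an adjusted p of 0.00261 (limma). With 74.8% of all spots called in this comparison, and 43.8% with a larger difference, a call here does not set the spot apart. The study named Q10D23 for its correlation with betaine and methionine in the same samples, so this is not independent evidence of a pattern over the year.

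By month, the 9 mature-needle arrays of Q10D23 had means of -0.22 ± 0.16 in January, -0.18 ± 0.16 in March, 0.0088 ± 0.17 in May, -0.045 ± 0.16 in July and -0.031 ± 0.083 in September (SD, n = 9 each). In November the mean was -0.13 ± 0.18 (SD, n = 8). Of the steps, March to May passed the test, with a difference of 0.19 ± 0.077 and an adjusted p of 0.0303 (limma). After quantile normalization it was 0.16 (adjusted p = 0.0721), and leaving out a replicate number gave adjusted p from 0.00702 to 0.149, with the call lost without replicate 1 and without replicate 2. The other steps were 0.034 from January to March, -0.054 from May to July, 0.014 from July to September and -0.091 from September to November, and November was 0.093 above January, with standard errors of 0.077 to 0.080. None of these passed.

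The warm months exceeded the cold ones by 0.11 in Whorl 1, 0.097 in Whorl 2 and 0.24 in Whorl 3. The cold arrays had their lowest mean in Whorl 3, -0.25, against -0.15 in Whorl 1 and -0.13 in Whorl 2. In Whorl 3 the 3 replicates of January read -0.22, -0.12 and -0.40, those of March -0.18, -0.36 and -0.40 and those of November -0.15, -0.15 and -0.25. All 9 warm arrays of Whorl 3 were above the mean of its cold arrays, and 7 were above the highest. The larger difference in Whorl 3 than in Whorl 1, 0.13 ± 0.11, did not pass the test (95% interval -0.085 to 0.35, adjusted p = 0.685, limma). Nor did Whorl 3 differ from Whorl 1 past the threshold over the 6 months (-0.031 ± 0.054, adjusted p = 0.779, limma) or in any single month, where the largest difference was -0.18 ± 0.13 in March (adjusted p = 0.57, limma).

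No difference of the young needles was detected for methylenetetrahydrofolate dehydrogenase. Whorl 0 differed from the older whorls by -0.030 (May), 0.0054 (July), 0.0095 (September) and 0.063 (November), each with a standard error of 0.11 and adjusted p from 0.838 to 0.976 (limma). The 95% intervals lay between -0.25 and 0.29. That of May, -0.25 to 0.19, overlaps the -0.42 to -0.14 of Q17J10, and the spots were not tested against each other. The steps of Whorl 0 from May to November were -0.018, 0.018 and -0.037, each with a standard error of 0.13, and none passed. The changes of the difference from the older whorls, 0.035, 0.0041, 0.054 and 0.093 in the same order as for Q17J10, also did not pass. These standard errors and intervals are unpaired and hold the spread by replicate number described below. With replicate number as a fixed block, all 26 comparisons of Q10D23 kept their direction and their side of the threshold.

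The spread of Q10D23 within groups was wide, at percentile 80.3 of all spots by its standard deviation, while Q17J10 was at percentile 47.1. Much of this spread of Q10D23 went with the replicate number, a pattern that was looked at after the values were seen. In July the replicates 1, 2 and 3 read 0.023, 0.15 and -0.29 in Whorl 0, -0.020, 0.19 and -0.24 in Whorl 1, 0.049, 0.043 and -0.26 in Whorl 2, and 0.079, -0.017 and -0.22 in Whorl 3. In January they read -0.088, -0.15 and -0.35 in Whorl 1, -0.015, -0.11 and -0.49 in Whorl 2, and -0.22, -0.12 and -0.40 in Whorl 3. Replicate 3 was the lowest in 19 of the 21 groups with all 3 replicates. The exceptions were May Whorl 0, at 0.094, -0.14 and -0.022, and May Whorl 2, at 0.11, -0.059 and 0.15, where replicate 3 was the highest.

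Averaged over these 21 groups the 3 replicates of Q10D23 had means of 0.0051, -0.033 and -0.24. Replicate 3 differed from the mean of the other 2 by -0.23 ± 0.027 (SE; adjusted p = 9.06e-08, limma, with the groups in the fit), more than any difference between months or whorls tested for this spot. The mean difference lay between -0.32 in July and -0.14 in May by month, and between -0.29 in Whorl 1 and -0.19 in Whorl 3 by whorl. Of all 7809 spots tested, 7.53% differed between replicate 3 and the others, and 1.2% had a larger difference. A single number was the lowest or the highest in at least 19 of 21 groups for 27 of 5823 spots, or 0.464%. In Q17J10 the same difference was 0.020 ± 0.028 (adjusted p = 0.762, limma), and replicate 3 was the lowest in 6 and the highest in 7 of the 21 groups. A figure legend of the study equates replicate 1 with individual 1, yet which trees made which pool is not given, and tree, pool, extraction and labelling cannot be told apart here.

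**Figure D3:**
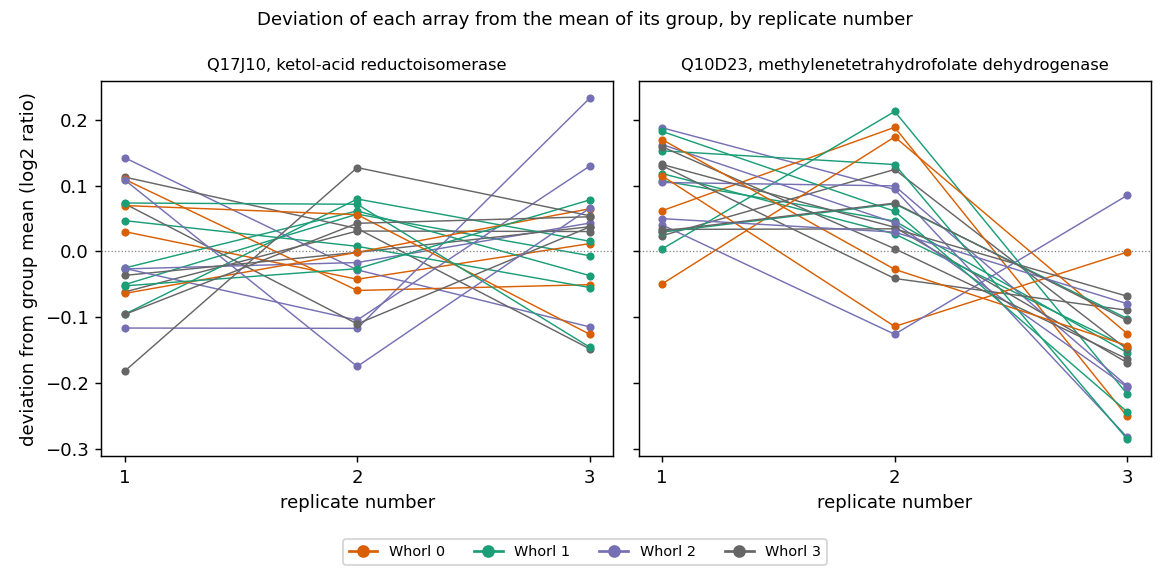
Deviation of each array from the mean of its group in log2 ratio (vertical axis) against the replicate number (horizontal axis), with 1 line for each of the 21 groups with 3 replicates and whorls in colour. In Q10D23 (right) 19 of 21 lines end at their lowest point at replicate 3, and in Q17J10 (left) 6 do.

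The difference between warm and cold months stood within each replicate number of mature needles. For Q10D23 it was 0.10 in replicate 1, 0.18 in replicate 2 and 0.18 in replicate 3, and for Q17J10 it was 0.64, 0.50 and 0.44. All 27 warm arrays of Q17J10 were above all 26 cold arrays, so the same holds within each number by necessity and adds nothing. In Q10D23, 1, 8 and 7 of the 9 warm arrays were above the highest cold array of their number.

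The reference was a pool of January RNA, yet the 9 January arrays were all below 0 for both enzymes. They ran from -0.31 to -0.15 in Q17J10, with a mean of -0.22 ± 0.048 (SD, n = 9), and from -0.49 to -0.015 in Q10D23, with a mean of -0.22 ± 0.16 (SD, n = 9). Of 5823 spots, 17.2% were below 0 on all 9 January arrays and 17.9% above 0 on all of them. For both spots 0 is thus not the level of the January needles, and only differences between arrays are read. A value near 0 for Q10D23 in May, July or September is therefore above, and not equal to, the mean of the January needles. Samples were always labelled with Cy3 and the pool with Cy5, and a part of the dyes in this offset was not tested.

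The month accounted for 95.4% of the variance between the group means of Q17J10 in Whorls 1 to 3, the whorl for 0.233% and the remainder for 4.37%. For Q10D23 these shares were 70.0%, 5.82% and 24.2%, and the medians over all spots were 80.7%, 3.12% and 14.1%. With Whorl 0 included, over its 4 months, the month took 84.6% in Q17J10 and 48.2% in Q10D23, and the median was 56.8%. The share of the whorl stayed low in both, at 1.14% and 5.46%, against a median of 18.2%. The study listed Q17J10 for Temperature over all whorls on these same arrays. Its high share of the month and low share of the whorl follow in part from that choice. The remainder, which holds differences between whorls that changed with the month and the error of the group means, was 14.3% in Q17J10 and 46.3% in Q10D23. For Q10D23 the shares divide a small variance, with a root mean square between groups of 0.056 against 0.24 in Q17J10.

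The 2 enzymes had group means that rose and fell partly together. Over the 22 groups their Pearson r was 0.73, over the 18 groups of Whorls 1 to 3 it was 0.78, and over the 65 arrays it was 0.39. The deviations of single arrays from their group means had an r of -0.027. The points share the reference pool and the normalization, and most of the array followed the season. Among 5822 other spots Q10D23 ranked 535 in likeness to Q17J10, and Q17J10 ranked 103 in likeness to Q10D23.

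**Figure D4:**
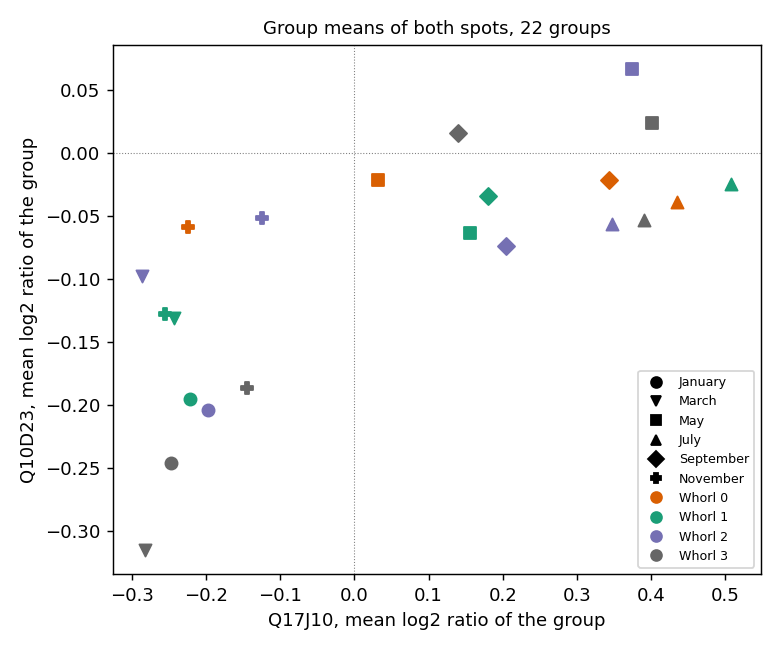
Mean log2 ratio of Q10D23 (vertical axis) against that of Q17J10 (horizontal axis) for the 22 groups, with months as symbols and whorls in colour; the 2 axes have different scales. The May, July and September groups have means of 0.031 to 0.51 in Q17J10 and the cold groups of -0.29 to -0.13, while the January and the March Whorl 3 groups are the lowest in Q10D23, at -0.32 to -0.20.

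Many spots shared the course of ketol-acid reductoisomerase. By Pearson r over the 22 group means the nearest were Q18N12 (0.97), Q16O8 (0.96), Q1K1 (0.96), Q7G9 (0.96) and Q10B15 (0.96), and 61 spots had an r above 0.9. The study describes Q1K1 as an unknown protein and Q7G9 as triose-phosphate isomerase, an enzyme of glycolysis and the Calvin cycle. Q6B3, described as UDP-arabinose mutase, which forms the arabinofuranose used in cell walls, was the sixth nearest with 0.95. The study listed all 3 with Q17J10 for Temperature, so their likeness follows in part from that choice. The most opposite courses were those of Q3A4 (-0.93), Q6N16 (-0.93) and Q18P4 (-0.93).

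Methylenetetrahydrofolate dehydrogenase had no spot with an r above 0.9. Its nearest were Q15K8 (0.84), Q10P24 (0.83), Q10I2 (0.82), Q21O20 (0.82) and Q21A14 (0.82), which the sources used here do not describe. The next spot had 0.81. Over the 65 arrays the r of these 5 was 0.75, 0.58, 0.40, 0.46 and 0.27, and 1 of them stayed among the 5 nearest. After quantile normalization 3 of them did, so this list depends on the choice of measure. Among the spots the study names, all listed for Temperature as well, the nearest were Q22K3, a clathrin light chain (0.79), Q2A8, the translation initiation factor eIF4A (0.79), and Q6B3 (0.75). The most opposite were Q1H19 (-0.91), Q1N23 (-0.90) and Q8D20 (-0.89), each with its highest mean in March Whorl 3, where Q10D23 had its lowest.

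Serine hydroxymethyltransferase, spot Q1E13, is the other folate enzyme the study names by spot, and no other member of the pathway could be counted. It had a value on 41 of the 65 arrays. In May it read 0.37, 0.55 and 0.48 in Whorl 0 and -0.063 on the only older array with a value, and the contrast with Whorls 1 to 3 was not tested in that month because Whorls 2 and 3 had no value. Whorl 0 was above the older whorls by 0.32 ± 0.24 in July and 0.27 ± 0.27 in November, and neither passed (adjusted p = 0.313 and 0.77, limma). Each older whorl had 2 arrays with a value in July, and 2 or 3 in November. In September the difference was 0.35, with 1 array in Whorl 1, 2 in Whorl 2 and 1 in Whorl 3. The 16 comparisons in which Q1E13 could be tested called 0.0395% to 58.6% of all spots. Q1E13 passed none of them, with only 1 array in some of its groups. Over the 19 groups with a value its means had an r of 0.51 with Q10D23 and 0.48 with Q17J10.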

How the data were processed

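The deposited values are log ratios of needle RNA (Cy3) to a common January pool (Cy5) on PINARRAY2 arrays, which the authors preprocessed and normalized with the R package BABAR. The sources used here do not give the base of the logarithm, and the deposited values, normalized by the authors, were treated as log2 ratios without further normalization. They ran from -4.49 to 6.41, with a median of 0 on every array. A month label of the reference channel differs between samples, and January, its source and date, was used. Between 6519 and 8076 spots had a value on an array, and precision depends on the number of arrays.

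The members and the lists were chosen with earlier results of these data known. Comparisons came from limma (version 3.58.1, under R 4.3.3), fitted to 65 arrays with a separate mean for all 22 groups, moderated variances and Benjamini-Hochberg adjustment over all spots. A spot entered a test if it had a value in each of the groups set against each other and on a share of 0.5 or more of the arrays, and it was called at an adjusted p under 0.05. Of the 26 comparisons, all were tested for Q10D23 and 16 for Q17J10. Descriptions used Python 3.11.15, and the fit was run on simulated data with independent noise on each array. The simulation held no correlation between arrays of the same replicate number, so it could not check the p-values for that. Spots named are both members, Q1E13, and by r over the group means the 5 nearest, the 3 most opposite and the 3 nearest that the study names.

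A figure legend of the study equates replicate 1 with individual 1, so numbers may mark the same pool. Deviations from group means correlated with a mean r of 0.279 over 87 pairs of same number and month, of which 68 were above 0.1 and the lowest was -0.291. The mean r was 0.094 over 585 pairs of the same number in different months, of which 294 were above 0.1, and -0.139 over pairs of different numbers in the same month, where deviations within a group sum to 0. Of 174 pairs of different numbers in the same month, 30 were above 0.1. For 54 of 65 arrays the best correlation with another group of that month was at their own number. No expected share was computed for this. Arrays of the same number thus tended to deviate alike within a month. Not every such pair was above 0.1 and the pools behind the numbers are not given, so the main standard errors and p-values are unpaired. The block was kept as an alternative. Alternatives were quantile normalization, the left-out array kept in, other filters on missing values, only the groups compared, a robust prior, both forms of the block and each replicate number left out.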

Additional observations from a re-analysis of the deposited data

Results flagged for a closer look

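The difference of Whorl 0 from Whorls 1 to 3 in ketol-acid reductoisomerase changed between May and July by 0.299 on the log2 scale, and the test of this change itself passed the threshold (adjusted p = 0.0236, limma). Whorl 0 differed from the older whorls by -0.28 in May and by 0.020 in July, and 21.7% of all spots passed the same test. The call was lost after quantile normalization (0.19, adjusted p = 0.0962, limma). It was also lost without replicate 2 and without replicate 3, with adjusted p up to 0.226 (limma).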

How the results depend on the processing

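Of the differences with a test, 10 of 16 in Q17J10 and 13 of 26 in Q10D23 kept their direction and their side of the threshold under all 11 alternatives. Of the 10 differences of Q17J10 without a test, 8 kept their direction and moved by less than the SD between replicates of 0.11, but 5 of the 10 moved by over 1.5 times under some alternative. Among those kept are the May difference of Whorl 0 in Q17J10, at -0.32 to -0.24 with a replicate number left out, and the warm to cold difference of Q10D23, at 0.12 to 0.19. The adjusted p of the latter then ran from 0.0014 to 0.0491 (limma), so it came close to the threshold. Quantile normalization turned the Whorl 0 difference of July to -0.087 in Q17J10 and to -0.016 in Q10D23, and that of September to -0.0017 in Q10D23, none of them past the threshold. It also took the change from May to July of the Whorl 0 difference of Q17J10 to 0.19 (adjusted p = 0.0962), the May difference of Whorl 3 from Whorl 1 to 0.18 (0.0661), the step of Whorl 0 from May to July to 0.25 and that from July to September to -0.035, and the step from March to May of Q10D23 to 0.16 (0.0721). The change from May to November of the Whorl 0 difference of Q17J10 became a call, with 0.22 (0.0392). With the left-out array kept in, the May difference of Whorl 3 from Whorl 1 was 0.24 (0.0733). The cause was not tested. The number of spots called moved by over 1.5 times under some alternative in 20 of 26 comparisons. It was 37.3% to 57.9% of the spots for Whorl 0 in May (52.3% as reported), 12.4% to 26.9% for its change from May to July (21.7%), 5.52% to 21.4% for Whorl 3 against Whorl 1 in May (15.1%) and 66.9% to 77.5% for warm against cold months (74.8%).

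With replicate number as a fixed block over all months, all 42 differences with a test kept their direction and stayed on their side of the threshold. With it as a random block within month (estimated correlation 0.225), the change from May to November of the Whorl 0 difference of Q17J10 was 0.23 (adjusted p = 0.0429), and no other call of either spot changed.

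Leaving out each replicate number in turn gave the following lowest and highest values, from fewer arrays. In Q17J10, Whorl 0 against the older whorls was -0.027 to 0.056 in July, and its change from May to July 0.21 to 0.35. Whorl 3 against Whorl 1 was 0.20 to 0.30 in May and -0.14 to 0.044 in September. November minus January was -0.0051 to 0.10, and the warm to cold difference of Whorl 3 minus that of Whorl 1 -0.022 to 0.057. In Q10D23, Whorl 0 against the older whorls was -0.090 to 0.029 in May, -0.031 to 0.032 in July and -0.048 to 0.053 in September. Its changes were -0.060 to 0.12 from May to July, -0.018 to 0.038 from July to September and -0.012 to 0.14 from September to November. Whorl 3 against Whorl 1 was -0.094 to 0.059 in July and -0.15 to 0.016 in November. The step from March to May was 0.18 to 0.20 and that from July to September -0.037 to 0.043. The steps of Whorl 0 were -0.17 to 0.11, -0.045 to 0.074 and -0.15 to 0.064.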
